A study of Homo sapiens with 20 samples.

Results

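The RNA of untreated HL60 cells was compared between 3 libraries labelled HK3-null and 3 libraries labelled Cas9 control, chosen by their labels from 12 RNAseq libraries in a series of 20 samples. HL60 is an established human acute myeloid leukemia line whose cells resemble promyelocytes. The HK3-null cells had received a lentiviral CRISPR vector that carried Cas9, a guide against the hexokinase gene HK3 and puromycin resistance, and the control cells expressed Cas9. All 6 samples were kept in 0.01% DMSO for 36 h, the diluent of all-trans retinoic acid (ATRA), and the knockout cells had, in the study's methods, been selected with puromycin and grown out as single clones. The labels give all 3 HK3-null samples the name of 1 knockout and do not say how many clones they stand for, and a difference between the genotypes cannot be told apart from a difference between the clones. With replicates of this kind the p-values measure the spread between these samples, which may be technical.

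The deposited values were read as normalized counts, that is, counts of read pairs per gene divided by a scaling factor for each library, with no division by gene length. The depth estimated from these values was 24100000 to 37000000 counts per library in the 6 DMSO samples. Cas9 control replicate 1 stood apart from the others. In it 16750 genes were detected, and in each of the other 5 DMSO libraries 15031 to 15561 were. It also held genes of connective tissue: the collagen genes COL1A1 and COL1A2 stood at 321 and 105 normalized counts, while COL1A1 was at 7 in each of Cas9 control replicates 2 and 3 and COL1A2 at 4 and 2, and in HK3-null neither exceeded 10. Of 21 genes with at most 1 normalized count in Cas9 control replicates 2 and 3 and a mean of at least 200 in HK3-null, 17 were above 0 in Cas9 control replicate 1, at a median of 0.41% of the HK3-null level. The counts of called genes on each chromosome group and in each whole list are therefore also given without that library where it altered them.

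HK3, the hexokinase that the knockout targeted, lies on chromosome 5 and had more RNA, not less, in the libraries labelled HK3-null. Cas9 control had normalized counts of 90, 65 and 105, and HK3-null had 344, 302 and 346. The groups did not overlap, and the log2 difference, calculated on log2(normalized count + 1) as for all differences given here, was 1.94 ± 0.20 (SE; limma, adjusted p = 3.64e-06). HK3 RNA thus went against the label in direction. The counts do not show whether the RNA still encodes a functional enzyme, since a small insertion or deletion in the coding sequence can leave the RNA in place. The paper reports that sequencing of genomic DNA found insertions or deletions at the cut site. It also reports mass spectrometry of pooled clones, which detected HK3 protein in vitamin D3-treated HL60 control cells and not in knockout cells. Before that treatment HK3 protein was not detected in the control cells either.

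Promyelocytes mature into neutrophils by an ordered change of genes. Azurophil granule enzymes such as myeloperoxidase come early, and the proteins of specific and gelatinase granules, the phagocyte oxidase, chemoattractant receptors and adhesion molecules come later, while cell division stops. Retinoic acid drives HL60 cells along part of this path, and these samples had not received it. MPO, which encodes myeloperoxidase, ranged from 616910 to 656074 normalized counts in Cas9 control and from 588140 to 661371 in HK3-null. All 7 promyelocyte markers were above the filter on low values in both genotypes, and of these CTSG was called lower, ANPEP higher and the other 5 not called in limma. At an unadjusted p under 0.05, with no fold required, 3 of the 7 were higher and 2 lower.

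Of 13256 genes tested, 2688 (20.3%) were called different, which required a 2-fold difference and an adjusted p under 0.05 in limma. The calls comprised 1529 genes higher in HK3-null (11.5% of those tested) and 1159 lower (8.74%). Without Cas9 control replicate 1 the counts were 1600 and 1113. These shares were not even across the genome. On chromosome 8, 242 of 427 tested genes were called higher and 7 lower (243 and 7 without Cas9 control replicate 1). On chromosome 6, 142 of 668 were higher and 29 lower (135 and 29 without it). The direction was opposite on chromosomes 5, 13 and 15, where 28, 19 and 10 genes were higher and 177, 31 and 185 were lower, of 573, 243 and 431 tested. Without Cas9 control replicate 1 these were 31, 20 and 14 higher and 176, 29 and 188 lower. On all other chromosomes together, 1056 of 10629 genes were higher (9.94%) and 691 lower (6.5%), or 1121 and 651 without that library.

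**Figure D1:**
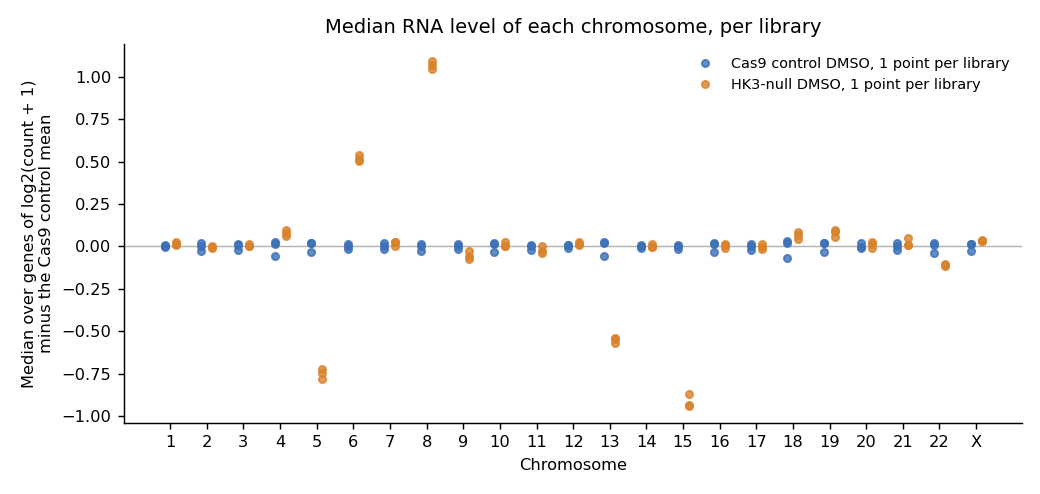
The horizontal axis gives the chromosome and the vertical axis the median over its tested genes of log2(normalized count + 1) minus the mean of the 3 Cas9 control DMSO libraries; each point is 1 library. The HK3-null points leave 0 on chromosomes 5, 6, 8, 13 and 15, with medians between -0.94 and 1.09, and the replicates of each genotype lie close together.

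The whole of these chromosomes was shifted, not a few genes on them. The median log2 difference was 1.07 on chromosome 8 and 0.52 on chromosome 6, and it was -0.75 on chromosome 5, -0.57 on chromosome 13 and -0.94 on chromosome 15. In linear terms the median gene stood at 2.1, 1.43, 0.595, 0.675 and 0.523 times its Cas9 control level, in that order. The medians of the 18 other chromosomes, X included, lay between -0.10 and 0.07. The 3 HK3-null libraries agreed closely, with medians of 1.04 to 1.09 on chromosome 8 and of -0.94 to -0.87 on chromosome 15, and the Cas9 control libraries lay between -0.06 and 0.02 on all 5. On chromosome 8, 95.3% of tested genes had a difference above 0, and on chromosome 15 9.74% had, against 50.7% on the other chromosomes. Cut into windows of 10 Mb with at least 10 tested genes, chromosome 8 had medians of 0.95 to 1.41 in all 14 windows and chromosome 15 had -1.12 to -0.74 in all 9. The windows ranged from -1.13 to -0.39 on chromosome 5, from 0.24 to 0.77 on chromosome 6 and from -0.67 to -0.36 on chromosome 13, so that no such window on the 5 chromosomes had a median on the other side of 0. The ATRA libraries, which do not enter these medians, held the same order, with HK3-null medians of 1.04 to 1.07 on chromosome 8 and -0.95 to -0.90 on chromosome 15 relative to Cas9 control in ATRA. The chromosomes were singled out with earlier results of these data known, so the shifts are given as a description with no test, and DNA copy number was not measured here.

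**Figure D2:**
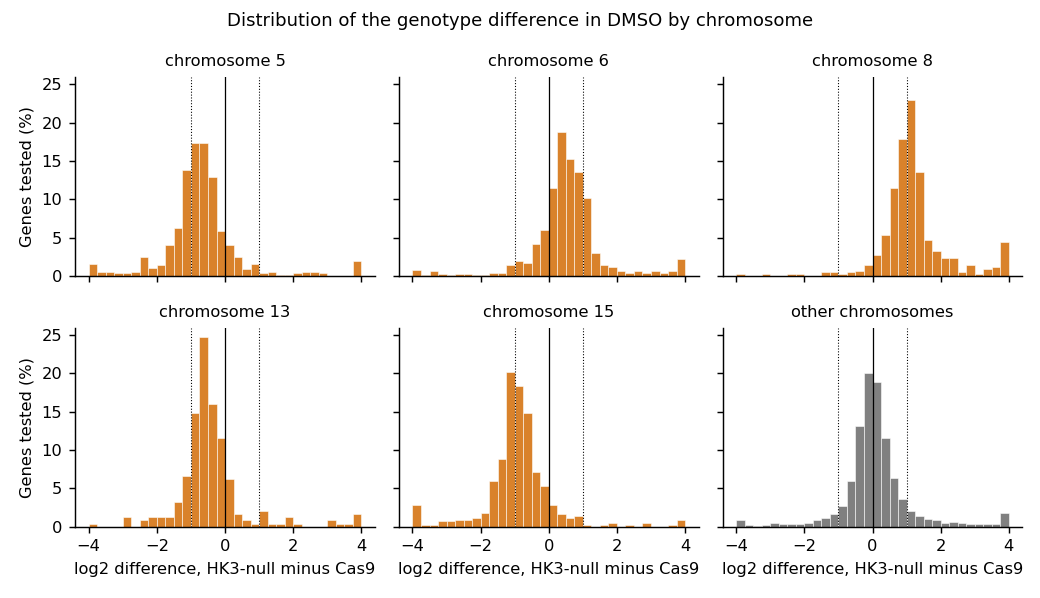
Each panel shows the share of tested genes (vertical axis, %) by their log2 difference between HK3-null and Cas9 control in DMSO (horizontal axis, bins of 0.25, with all values beyond 4 placed in the end bins); dotted lines mark a 2-fold difference. The bulk of the genes moves to the right on chromosomes 6 and 8 and to the left on chromosomes 5, 13 and 15, around medians of 0.52, 1.07, -0.75, -0.57 and -0.94.

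Genes were spread around the shifted medians much as elsewhere. Between 59.4% and 66.7% of genes on each of the 5 chromosomes lay within 0.5 log2 units of that chromosome's median, and 63.6% did on the other chromosomes. With each chromosome's median subtracted before the test, 1282 genes were called higher and 899 lower (9.67% and 6.78% of those tested). Chromosome 8 then had 47 higher and 22 lower, chromosome 15 had 37 and 30, chromosome 5 had 51 and 45, chromosome 6 had 55 and 55 and chromosome 13 had 22 and 12. The functional groups below are therefore described on the other chromosomes first, and each member on a shifted chromosome is named as such.

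The marker genes showed large differences of both signs, all on chromosomes with no shift. CYBB on chromosome X encodes the catalytic subunit gp91phox of the phagocyte NADPH oxidase. It stood at 241, 251 and 180 normalized counts in Cas9 control and at 8433, 8696 and 7412 in HK3-null, a 36.7-fold difference (log2 5.20 ± 0.11 SE, adjusted p = 3.82e-12). CD38, a surface enzyme that retinoic acid induces in HL60 cells, went from 5, 6 and 4 to 197, 202 and 175 (log2 5.01 ± 0.13, adjusted p = 2.03e-11). FPR1, the receptor for bacterial formyl peptides, went from 6, 4 and 7 to 207, 222 and 216 (log2 5.04 ± 0.28, adjusted p = 1.38e-08). In all 3 genes every HK3-null library lay above every Cas9 control library.

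The G1 cyclins exchanged places. CCND1 (cyclin D1) had 266, 94 and 84 normalized counts in Cas9 control and 2567, 2443 and 1997 in HK3-null, with a log2 difference of 4.17 ± 0.37 and an adjusted p of 9.22e-07. The highest control value belonged to Cas9 control replicate 1, the library with collagen RNA, and without it the difference was 4.69. CCND2 (cyclin D2) was at 5509, 5314 and 4331 in Cas9 control and at 138, 118 and 139 in HK3-null, which is 38.0-fold lower in HK3-null (log2 -5.25 ± 0.14, adjusted p = 2.24e-11).

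**Figure D3:**
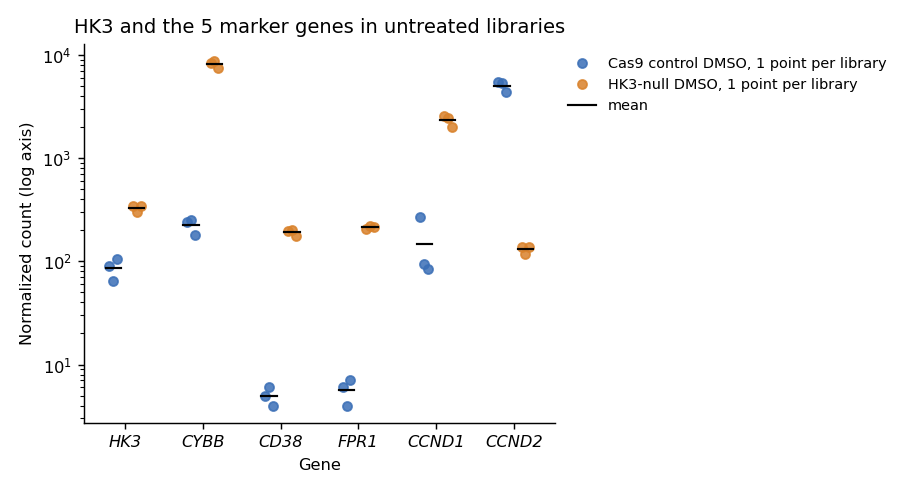
Normalized counts (vertical axis, log scale) of HK3 and the 5 marker genes (horizontal axis) in untreated libraries; each point is 1 library and the black bars are group means. HK3, CYBB, CD38, FPR1 and CCND1 are higher and CCND2 is lower in all 3 HK3-null libraries, with no overlap between the genotypes.

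Proteins of the specific and gelatinase granules, which are made at the myelocyte stage and later, were higher as a group. Of 21 listed genes 17 passed the filter on low values, and of these 15 were called higher and 1 lower, with a median log2 difference of 3.62 against 0 for all tested genes. Genes that passed the filter only through the genotype where they were high had to differ. Of the 7 members above the filter in both genotypes, 5 were higher and 1 lower, where 8.44% and 6.46% of all such genes were. LTF, which encodes the iron-binding lactoferrin, had 1, 0 and 0 normalized counts in Cas9 control and 73, 60 and 59 in HK3-null (log2 5.68 ± 0.37, adjusted p = 5.49e-08). CEACAM8, the granulocyte adhesion molecule CD66b, rose from 3, 4 and 2 to 148, 153 and 156 (log2 5.29 ± 0.21, adjusted p = 8.43e-10). SLPI, a secreted inhibitor of leukocyte proteases, was the exception and fell from 184, 148 and 180 to 81, 72 and 82. The replicates of each genotype lay close together in all 3 genes. Whether more of the cells carried these RNAs or each cell carried more cannot be told apart in bulk samples.

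Azurophil granule genes moved in both directions. Of 14 tested of 16, 4 were called higher, 2 lower and 8 not called, with a median of 0.13, and of the 13 above the filter in both genotypes 3 were higher and 2 lower. Of all tested genes above it in both, 8.44% were higher and 6.46% lower. BPI, a protein that permeabilizes Gram-negative bacteria, was at 107, 80 and 108 normalized counts in Cas9 control and at 6250, 6206 and 6270 in HK3-null, a 63.4-fold difference (log2 5.99 ± 0.10, adjusted p = 3.85e-13). LYZ (lysozyme, shared by several granules) rose from 8687, 8668 and 7998 to 45925, 47014 and 45149. The 2 members called lower, CTSG and PRSS57, encode serine proteases, while the serine protease genes ELANE and PRTN3 were not called. CTSG (cathepsin G) fell from 12456, 11535 and 11804 to 3561, 3416 and 3407, and PRSS57 from 5145, 4840 and 5050 to 1041, 1098 and 1066 (log2 -1.78 and -2.23, adjusted p = 7.01e-09 and 4.31e-09). The other called members lay on chromosome 8. DEFA3, one of the nearly identical alpha-defensin genes that short reads cannot always separate, was at 0 in all 3 Cas9 control libraries and at 1464, 1421 and 1430 in HK3-null. Against a limit of 3 counts per library it was at least 524-fold higher. DEFA4, a further defensin, rose from 12, 6 and 12 to 438, 459 and 480, and its log2 difference of 5.44 was 4.35 once the chromosome's median was subtracted.

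All 7 subunits of the phagocyte NADPH oxidase, which makes superoxide in the phagosome, were tested. Besides CYBB, the cytosolic subunit NCF1 was among the 4 called higher, and none was called lower in limma, with 1 lower at an unadjusted p under 0.05. NCF1 rose from 58, 33 and 56 to 548, 491 and 518 (log2 3.42 ± 0.16, adjusted p = 3.76e-09), although it has pseudogenes of nearly the same sequence and its count is uncertain for that reason.

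Receptors by which phagocytes sense microbes and chemoattractants rose in 15 of 27 tested genes of 30 (16 without Cas9 control replicate 1). None was called lower in limma, and 1 was lower at an unadjusted p under 0.05. Of the 21 members above the filter in both genotypes 9 were higher. CLEC4E (Mincle, a receptor for mycobacterial glycolipid) had 2, 3 and 2 normalized counts in Cas9 control and 309, 314 and 293 in HK3-null (log2 6.54 ± 0.38, adjusted p = 2.28e-08). CD14, the coreceptor for lipopolysaccharide, rose from 3, 4 and 2 to 125, 124 and 116, and this was on chromosome 5, where most genes were lower. Among Fc receptors and paired immune receptors, 14 of 27 tested were higher and 3 lower (15 and 4 without Cas9 control replicate 1). Much of this count came from genes that passed the filter through HK3-null alone: of the 17 members above it in both genotypes 5 were higher and 2 lower, and their median was 0.41 against 1.41 for all tested members. Of all tested genes above it in both, 8.44% were higher and 6.46% lower. LILRB4, LILRA5 and FCGR3B were at 0 in all Cas9 control libraries. In HK3-null they had 44, 43 and 30, 35, 26 and 39, and 18, 26 and 31 normalized counts, which is at least 14.2-fold, 12.1-fold and 9.1-fold higher. The inhibitory receptor SIGLEC10 and the leukocyte immunoglobulin-like receptors LILRA2 and LILRB1 fell. LILRA2 went from 1072, 1000 and 1185 to 430, 390 and 481. The receptors of this last family resemble each other, and shared reads may have been split between them.

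Adhesion molecules rose in 8 of 17 tested genes, and in 5 of the 14 above the filter in both genotypes, where 11.5% of all tested genes and 8.44% of those above it in both rose. None was called lower in limma, and 1 was lower at an unadjusted p under 0.05. ITGAX, the alpha chain of the CD11c integrin, went from 5, 3 and 3 to 169, 131 and 182 (log2 5.13 ± 0.25, adjusted p = 5.11e-09). JAML, which binds junctional adhesion molecules of epithelium, went from 9, 12 and 14 to 172, 170 and 215. ICAM1, the ligand of the beta-2 integrins, stood at 1, 5 and 3 in Cas9 control and at 67, 100 and 54 in HK3-null.

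The S100 genes S100A8, S100A9 and S100A12, which encode calcium-binding proteins of neutrophils and monocytes, rose with little spread between replicates. S100A8, which forms calprotectin with S100A9, rose from 207, 203 and 239 normalized counts to 7883, 7928 and 8247 (log2 5.21 ± 0.06, adjusted p = 6.11e-14). S100A9 rose from 843, 694 and 767 to 15826, 15646 and 15278, and S100A12 from 2, 2 and 1 to 313, 310 and 301. All 3 lie on chromosome 1, and in each the replicates of a genotype were tightly grouped. Of 17 tested S100 and annexin genes 6 were higher and 1 was lower, and of the 15 above the filter in both genotypes 5 were higher. Of all tested genes above it in both, 8.44% were higher. The lower gene, S100A10, had 130, 48 and 38 in Cas9 control and 7, 8 and 7 in HK3-null, with its highest value in Cas9 control replicate 1. Without that library the log2 difference was -2.39, and the gene was still called.

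The upstream sequences of 4 genes are shown to set S100A8, CYBB and CLEC4E, which rose, beside OAS3, an interferon-stimulated gene described below, which fell. They were chosen after their values were seen. Each is the stretch of 250 bases before the annotated start, 5′ to 3′ on the gene's strand, from RefSeq on GRCh38.p14. Capitals mark matches, on either strand, to a PU.1-type motif (GAGGAA), a C/EBP-type motif (TTGCNNAA) or an interferon response type motif (GAAANNGAAA), whose letters may overlap. CYBB lies at chrX:37779809-37780058 (+), S100A8 at chr1:153391189-153391438 (-), CLEC4E at chr12:8540906-8541155 (-) and OAS3 at chr12:112938224-112938473 (+).
CYBB: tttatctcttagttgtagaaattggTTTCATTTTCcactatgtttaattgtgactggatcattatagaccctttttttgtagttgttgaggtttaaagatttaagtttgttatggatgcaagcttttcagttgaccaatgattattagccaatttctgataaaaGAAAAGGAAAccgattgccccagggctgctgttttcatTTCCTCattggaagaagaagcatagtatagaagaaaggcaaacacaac
S100A8: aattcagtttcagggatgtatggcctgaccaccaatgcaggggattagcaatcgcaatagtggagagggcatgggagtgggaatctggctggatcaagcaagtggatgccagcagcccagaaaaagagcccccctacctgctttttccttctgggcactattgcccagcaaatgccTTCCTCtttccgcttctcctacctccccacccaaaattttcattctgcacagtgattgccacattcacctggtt
CLEC4E: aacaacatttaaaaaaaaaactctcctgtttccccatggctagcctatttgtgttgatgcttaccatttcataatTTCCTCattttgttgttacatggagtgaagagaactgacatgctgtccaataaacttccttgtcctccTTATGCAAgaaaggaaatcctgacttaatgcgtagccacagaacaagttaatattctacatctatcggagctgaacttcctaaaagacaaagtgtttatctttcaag
OAS3: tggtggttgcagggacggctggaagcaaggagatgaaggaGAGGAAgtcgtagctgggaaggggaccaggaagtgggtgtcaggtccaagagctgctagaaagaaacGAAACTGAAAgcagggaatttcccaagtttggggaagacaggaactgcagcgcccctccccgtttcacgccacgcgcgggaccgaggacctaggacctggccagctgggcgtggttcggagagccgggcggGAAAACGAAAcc

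The PU.1-type motif occurred once in each of the 4 windows, with its near edge 42 bases before the start in CYBB, 68 in S100A8, 169 in CLEC4E and 204 in OAS3. CLEC4E also held a C/EBP-type match 99 bases before its start, and CYBB and OAS3 each held 2 interferon response type matches. A start was found in the table for 10226 of the 13256 tested genes. The PU.1-type motif was present in 23.4% of all these windows, in 27.5% of those of genes called higher on the other chromosomes and in 21.9% of those called lower. The C/EBP-type motif was present in 6.16%, 8.18% and 5.96%, and the interferon response type motif in 2.45%, 2.23% and 2.69%. Of the tested specific and gelatinase granule genes with a window, 6 of 12 held the PU.1-type motif and 4 of 12 the C/EBP-type motif, and 14 of 26 interferon-stimulated genes held the interferon response type motif. The windows of CD38 and FPR1 held none of the motifs. A match of letters is a description and not a measure of binding.

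Some genes of eosinophils and monocytes rose as well. Of 10 tested eosinophil, basophil and mast cell markers 6 were higher and 1 lower, but of the 4 above the filter in both genotypes 1 was higher and 1 lower, at a median of -0.26. Their summed level went from between 9147 and 10051 normalized counts to between 165473 and 173332. Nearly all of that sum came from PRG2, the eosinophil major basic protein, which had the largest absolute rise of any called gene, from 7754, 8164 and 7250 to 162637, 165159 and 170475 (log2 4.43 ± 0.13, adjusted p = 4.75e-11). EPX (eosinophil peroxidase) rose from 3, 3 and 3 to 652, 694 and 509, and CLC (galectin-10 of Charcot-Leyden crystals) from 4, 5 and 7 to 156, 213 and 177. MS4A2, a chain of the high-affinity IgE receptor of mast cells and basophils, fell from 81, 96 and 127 to 12, 7 and 14. Of 5 tested monocyte and macrophage markers 4 were higher, 1 of them above the filter in both genotypes. FCN1 (ficolin-1) rose from 3, 2 and 5 to 471, 422 and 476. The macrophage receptor MRC1 was at 0 in all 6 libraries. PAX5, a B cell regulator, rose from 1, 0 and 2 to 98, 119 and 92, as the only called gene of 6 B cell markers. Of the 11 erythroid markers 8 were at 0 in all 6 libraries, and EPOR, the erythropoietin receptor, rose from 72, 82 and 130 to 221, 265 and 244. ITGA2B of megakaryocytes (6, 2 and 4 to 27, 24 and 15) and CD3E of T cells (3, 1 and 1 to 5, 8 and 5) were called at low counts. Without Cas9 control replicate 1 there were 2 higher T and NK cell markers in place of 1. CD3E was not called without Cas9 control replicate 2 (1.28) or HK3-null replicate 2 (1.25). The epithelial, fibroblast and endothelial markers summed to 30 to 478 in Cas9 control and 37 to 42 in HK3-null, and the top of that range was Cas9 control replicate 1, without which 1 of them in place of none was called higher.

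Transcription factors of the myeloid lineage and of progenitors changed in 12 of 37 tested genes of 42, with 10 higher and 2 lower (11 and 2 without Cas9 control replicate 1), and 7 higher and 1 lower of the 32 above the filter in both genotypes. KLF2, a factor of quiescent leukocytes, rose from 1, 0 and 0 to 33, 24 and 25, and FOS, a subunit of AP-1, from 17, 11 and 10 to 150, 123 and 96 (log2 4.48 and 3.19, adjusted p = 4.85e-07 and 5.74e-07). HOXA10, a factor of immature myeloid cells, fell from 81, 64 and 42 to 7, 10 and 4. The other fall, of the interferon regulatory factor IRF1 on chromosome 5, had a log2 difference of -1.14 that became -0.42 after the chromosome's median was subtracted and was then not called. HOX and protocadherin clusters had 5 higher and 15 lower of 24 tested of 97 listed (6 and 14 without Cas9 control replicate 1). Of the 24, 15 lie on chromosome 5, with 4 higher and 8 lower. Only 5 of the 24 were above the filter in both genotypes, of which 4 were lower. HOXC10 was at 99, 90 and 119 in Cas9 control and at 0 in all HK3-null libraries, at least 35.3-fold lower, and HOXA11 fell from 93, 79 and 91 to 2, 1 and 2. Of 26 chromatin modifiers 3 were higher, which is the share of all tested genes (11.5%). Among them were HDAC9 (13, 1 and 2 to 61, 41 and 64) and DNMT3B (104, 82 and 117 to 272, 268 and 294). Histone cluster genes, whose RNAs mostly lack a poly(A) tail, had 3 higher and 3 lower of 32 tested, 4 higher without Cas9 control replicate 1 and 6 lower without Cas9 control replicate 2 or HK3-null replicate 3. Of the 32, 26 lie on chromosome 6, with 3 higher and 2 lower. With chromosome medians subtracted, the list had 1 higher and 10 lower.

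Genes of progenitors themselves were few. Of 18 listed, 6 were tested, with 2 higher and 2 lower. KIT, the stem cell factor receptor, fell from 228, 278 and 190 to 91, 96 and 82 (log2 -1.35 ± 0.19, adjusted p = 4.56e-05), and MLLT3 fell from 184, 137 and 168 to 49, 55 and 60. SOX4 on chromosome 6 rose from 526, 364 and 368 to 1446, 1313 and 1270, by 1.16 log2 units after subtraction of the chromosome's median. Among retinoid receptors and retinoid-induced genes, 4 of 14 tested were higher and 1 lower (5 and 1 without Cas9 control replicate 1), and 2 of the 6 above the filter in both genotypes were higher. Besides CD38, DHRS9, a retinol dehydrogenase, rose from 3, 2 and 2 to 34, 37 and 69, and ALDH1A1, which makes retinoic acid, fell from 67, 44 and 57 to 6, 2 and 5. RDH10, a further retinol dehydrogenase, lies on chromosome 8, and its difference of 1.37 was 0.28 relative to that chromosome.

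DNA replication and mitosis genes were called on the shifted chromosomes and not elsewhere. None of 38 tested DNA replication genes and none of 25 tested mitosis genes on the other chromosomes was called in limma, with medians of -0.15 and 0.08. At an unadjusted p under 0.05, with no fold required, 17 of the replication genes were lower and 3 higher and 2 of the mitosis genes were lower and 8 higher, where 57.1% of all genes on the other chromosomes passed in either direction. Their calls were confined to chromosomes 5, 8 and 15. Among them, the cyclins CCNB1 on chromosome 5 and CCNB2 on chromosome 15, which drive entry into mitosis, had log2 differences of -1.04 ± 0.07 and -1.09 ± 0.07, and GINS4 on chromosome 8, part of the replicative helicase, had 1.16 ± 0.07. Relative to their chromosomes these differences were -0.32, -0.17 and 0.07, and none of the 3 was called. Near the fold limit, CCNB1 was also not called without Cas9 control replicate 3 (-1.0), when 1 mitosis gene in place of 4 was called lower. G1 regulators changed in 9 of 27, with 7 higher and 2 lower, and 5 and 1 of the 24 above the filter in both genotypes. On the other chromosomes 3 of 21 were higher and 2 lower, where 9.94% and 6.5% of all tested genes were. Besides the cyclins CCND1 and CCND2, the inhibitor CDKN2D (p19) rose from 152, 118 and 85 to 533, 452 and 290, and CDKN1C (p57) fell from 16, 12 and 10 to 1, 1 and 0. The p53 target CDKN1A (p21) on chromosome 6 overlapped between the genotypes, at 124, 3 and 0 in Cas9 control and 104, 113 and 107 in HK3-null. Its log2 difference was 3.78 ± 1.21 (adjusted p = 0.0177) and was 5.77 without Cas9 control replicate 1. It was not called without Cas9 control replicate 2 or 3 (3.28 and 2.28).

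**Figure D4:**
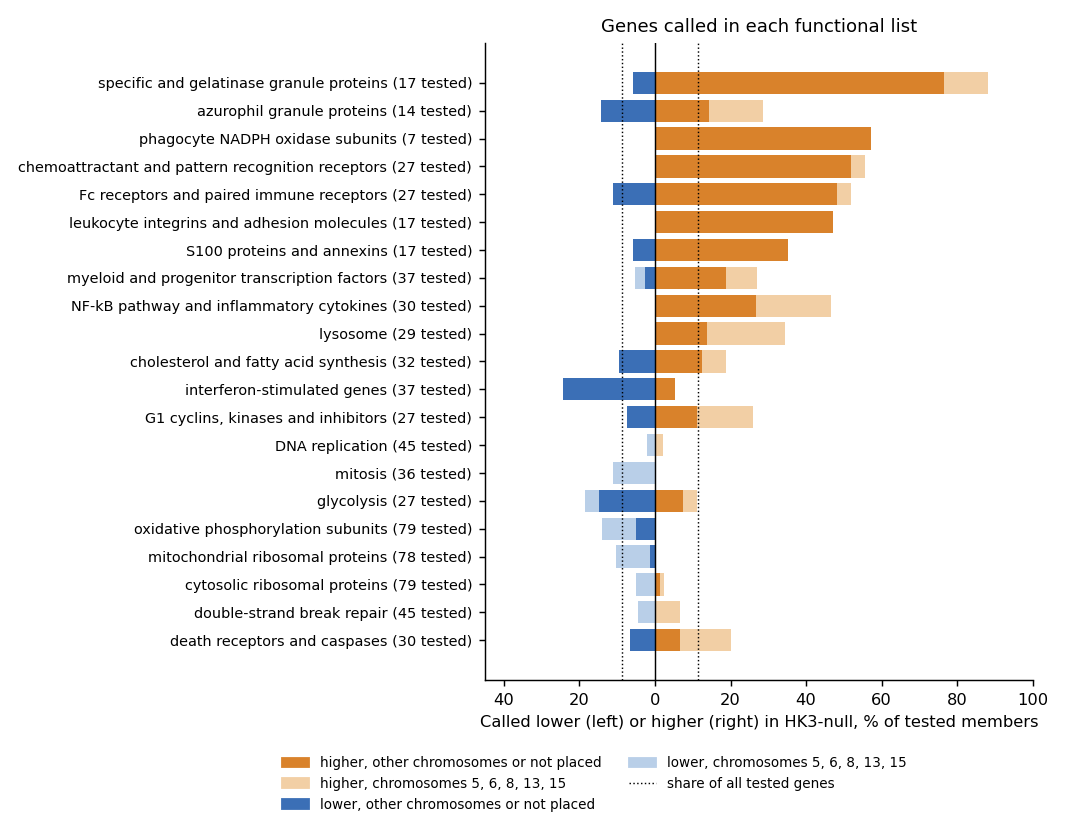
For each list the bar to the right gives the share of its tested members called higher in HK3-null and the bar to the left the share called lower (horizontal axis, %); pale segments are members on chromosomes 5, 6, 8, 13 and 15, and dotted lines mark the shares over all tested genes, 11.5% higher and 8.74% lower. Myeloid lists extend to the right mostly in the dark segments, interferon-stimulated genes extend mainly to the left, and the calls in replication, mitosis and double-strand break repair are pale.

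Glycolysis and related genes had 3 higher and 5 lower of 27 tested, with a median of -0.49, where 11.5% and 8.74% of all tested genes were higher and lower. HK3 itself was 1 of the 3 higher. PFKM, the muscle form of phosphofructokinase, fell from 1169, 1016 and 1129 normalized counts to 24, 29 and 28, 39.5-fold lower in HK3-null (log2 -5.31 ± 0.14, adjusted p = 2.05e-11). HK1, the most widespread hexokinase, fell from 192, 98 and 123 to 46, 45 and 38, and the glucose transporter SLC2A3 rose from 57, 51 and 74 to 672, 791 and 762. PFKFB2, which sets fructose 2,6-bisphosphate, rose from 1, 0 and 0 to 16, 19 and 22. PKM (pyruvate kinase) on chromosome 15 had one of the 5 largest absolute falls, from 67430, 64809 and 66161 to 24448, 24718 and 23492, with a log2 difference of -1.45 that was not called once the chromosome's median was subtracted. None of 24 genes of the pentose phosphate pathway and TCA cycle on the other chromosomes was called in limma, at a median of -0.27, with 13 lower and 4 higher at an unadjusted p under 0.05. IDH3A on chromosome 15 and SUCLA2 on chromosome 13 were called lower, at -1.41 and -1.0, and stood at -0.49 and -0.50 relative to their chromosomes. SUCLA2 was not called without Cas9 control replicate 2 (-0.96) or HK3-null replicate 2 (-0.99), which left 1 gene of the list lower.

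Amino acid handling showed some of the widest single-gene changes. SLC38A5, a transporter of glutamine and serine on chromosome X, fell from 7204, 6844 and 6828 to 2, 8 and 4 (log2 -10.41 ± 0.28, adjusted p = 3e-11). SLC43A2, a transporter of large neutral amino acids, fell from 847, 759 and 587 to 124, 141 and 92. SLC7A2, a transporter of arginine and lysine on chromosome 8, was at 0, 0 and 1 in Cas9 control and at 2240, 2305 and 2222 in HK3-null. Of the 15 tested transporters 1 rose and 2 fell, and 4 fell without Cas9 control replicate 3 and 5 without HK3-null replicate 2. PHGDH, which begins serine synthesis, fell from 8908, 8558 and 8670 to 1617, 1396 and 1294 (log2 -2.61 ± 0.10, adjusted p = 5.89e-10). ATF5, a factor of the integrated stress response, fell from 20121, 19319 and 17694 to 3775, 3427 and 2766. In that list 20 of 23 genes had a difference below 0, and 3 were called lower and none higher in limma, with 2 higher at an unadjusted p under 0.05.

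Sterol and fatty acid genes had 6 higher and 3 lower of 32 tested (5 and 3 without Cas9 control replicate 1). On the other chromosomes 4 of 27 were higher and 3 lower, where 9.94% and 6.5% of all tested genes were. CYP51A1, a demethylase of cholesterol synthesis, rose from 1102, 1247 and 1152 to 4493, 4661 and 6163 (log2 2.12 ± 0.18, adjusted p = 5.59e-07). The exporters moved the other way: ABCA1 fell from 321, 551 and 122 to 46, 49 and 22, and ABCG1 from 4, 10 and 9 to 0 in all HK3-null libraries, at least 2.64-fold lower. SREBF1, the sterol regulatory factor for lipid synthesis, fell from 3385, 3536 and 3209 to 1429, 1355 and 1420. SQLE and FDFT1, which act in squalene metabolism, lie on chromosome 8 and had differences of 1.84 and 1.38, or 0.75 and 0.29 relative to it. Lysosomal genes had 10 called higher of 29 (12 without Cas9 control replicate 1) and none lower in limma, with 3 lower at an unadjusted p under 0.05. Of all tested genes 11.5% were higher. On the other chromosomes 4 of 19 lysosomal genes were higher, where 9.94% of all tested genes were. With chromosome medians subtracted, the list had 6 higher and none lower. GRN (progranulin) rose from 4005, 3512 and 3996 to 13193, 13382 and 12345 and CTSZ (cathepsin Z) from 603, 585 and 557 to 2026, 2029 and 1947, and 4 of the 10 calls were on the other chromosomes, 4 on chromosome 8 and 2 on chromosome 6.

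Subunits of the respiratory chain and of mitochondrial ribosomes had medians somewhat below 0. Of 79 tested oxidative phosphorylation subunits 71 had a difference below 0, with a median of -0.47, 11 called lower and none higher in limma (6 higher at an unadjusted p under 0.05). On the other chromosomes the median of 65 subunits was -0.46 with 4 called lower, near the 6.5% of all tested genes there. On chromosome 5 all 6 were called, at a median of -1.30. On chromosome 8 the 4 subunits had a median of 0.59 and none was called in limma, though all 4 were higher at an unadjusted p under 0.05. UQCRQ on chromosome 5, a subunit of complex III, fell from 5745, 5554 and 5132 to 1818, 1810 and 1841, and NDUFS6 on chromosome 5, of complex I, and COX5A on chromosome 15, of complex IV, had differences of -1.45 and -1.43. After subtraction of the chromosome medians these were -0.87, -0.73 and -0.50, and none of the 3 was called. Mitochondrial ribosomal proteins had a median of -0.33 on all chromosomes and on the 60 other-chromosome members, with 8 of 78 called lower, 7 of them on chromosomes 5, 13 and 15 (7 in all without Cas9 control replicate 1). This was near the share of all tested genes called lower, 8.74%. The 13 genes encoded in mitochondrial DNA had a median of 0.10 and none was called in limma, with 2 higher and 1 lower at an unadjusted p under 0.05.

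**Figure D5:**
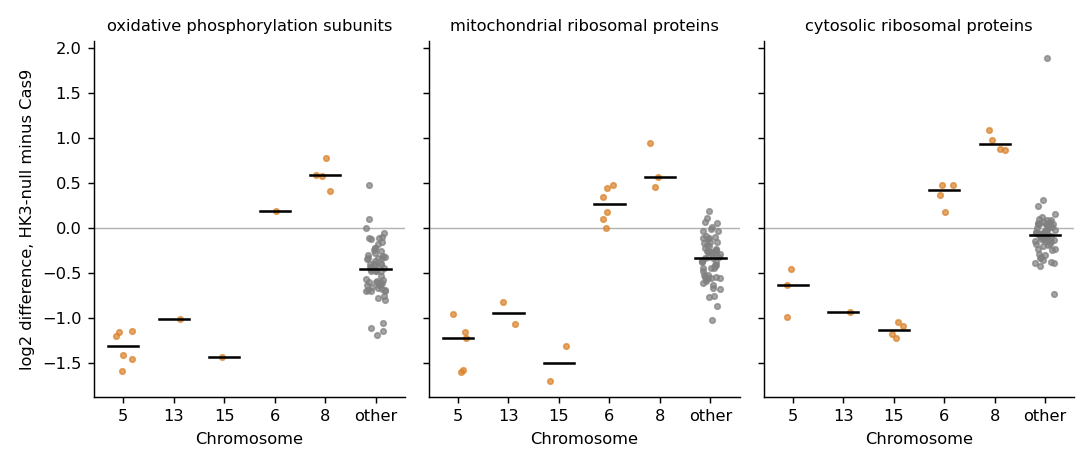
Each point is 1 tested gene of the named complex, placed by its chromosome (horizontal axis) and its log2 difference between HK3-null and Cas9 control in DMSO (vertical axis); bars are medians. In each complex the medians of the subunits on chromosomes 5, 13 and 15 lie below, and those on chromosomes 6 and 8 above, that of the members on the other chromosomes, whose medians are -0.46, -0.33 and -0.07.

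Cytosolic ribosomal proteins also separated by chromosome. Of 79 tested members 2 were called higher and 4 lower (3 and 4 without Cas9 control replicate 1). The 63 members on the other chromosomes had a median of -0.07, and of these RPL39L, a paralog of low level, was the only one called (1, 6 and 1 to 11, 9 and 11), and it was not called without Cas9 control replicate 3 (1.59). The 4 members on chromosome 15 had a median of -1.13 and all were lower. RPL4 and RPLP1 fell from means of 123000 and 59200 normalized counts to 54800 and 28000. The 4 on chromosome 8 had a median of 0.93, with RPL30 called (20765, 20202 and 19185 to 41869, 43529 and 42551). Many ribosomal protein genes have processed pseudogenes, and their counts may include shared reads. PABPC1 on chromosome 8, the poly(A)-binding protein, rose from 36894, 38166 and 36145 to 83628, 86697 and 82026, and NPM1 on chromosome 5, the nucleolar protein nucleophosmin, fell from 120460, 127197 and 108212 to 50816, 50820 and 51726. Their differences were 1.18 and -1.21, or 0.09 and -0.49 relative to the medians of their chromosomes, and neither was then called, since both were under 2-fold. Apart from MYCL, at 3, 1 and 1 against 11, 12 and 5, NPM1 was the only called gene of the MYC network and nucleolar growth list of 25. MYCL was not called without Cas9 control replicate 2 (1.79) or 3 (1.79) or without HK3-null replicate 1 (1.81) or 2 (1.75), and 2 genes of the list were called higher without Cas9 control replicate 1 or HK3-null replicate 3. MYC itself lies on chromosome 8 and did not follow it: it had 51419, 42067 and 50378 normalized counts in Cas9 control and 54095, 45237 and 51576 in HK3-null. The groups overlapped, the log2 difference was 0.07 ± 0.14 (adjusted p = 0.681), and relative to the chromosome it was -1.02 and called lower.

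Genes of double-strand break repair were called on the shifted chromosomes and not elsewhere. None of the 29 tested on the other chromosomes was called in limma, at a median of 0.01, with 6 higher and 8 lower at an unadjusted p under 0.05. On the shifted chromosomes WRN and NBN (chromosome 8) and MDC1 (chromosome 6) were higher, by 1.36, 1.09 and 1.01, and TP53BP1 and HERC2 (chromosome 15) lower, by -1.59 and -1.44. WRN is a helicase, and NBN, MDC1 and TP53BP1 act at breaks. None of the 5 was called relative to its chromosome, and MDC1 was not called without Cas9 control replicate 2 (0.96) or HK3-null replicate 1 or 3 (1.00 in each). The receptors of the ligand TRAIL lie together on chromosome 8. TNFRSF10B rose from 280, 247 and 161 to 2231, 2254 and 2136 and the decoy TNFRSF10C from 4, 1 and 2 to 29, 43 and 32, and both stayed over 2 log2 units above the chromosome's median, at 2.21 and 2.41, while TNFRSF10A was at 0.15. The inflammatory caspase CASP1 fell from 784, 732 and 769 to 279, 285 and 282. In the BCL2 family 3 of 16 were higher, with 1 of 12 on the other chromosomes, where 9.94% of all tested genes were higher. BBC3 (PUMA), a BH3-only activator of apoptosis, rose from 46, 36 and 16 to 213, 227 and 134. BCL2A1, a survival protein on chromosome 15, rose from 10, 10 and 10 to 80, 69 and 73 against the fall of that chromosome. BNIP3L, a mitophagy receptor on chromosome 8, had 1.33, or 0.24 relative to the chromosome.

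Antioxidant and glutathione genes had 1 higher and 2 lower of 33 tested, with a median of -0.01. PRDX2 (peroxiredoxin 2) fell from 785, 674 and 761 to 293, 267 and 244. GLRX (glutaredoxin) on chromosome 5 fell from 1644, 1683 and 1698 to 612, 609 and 718, and GSR (glutathione reductase) on chromosome 8 rose by 1.18, and relative to their chromosomes these were -0.66 and 0.09. Targets of p53 had 6 higher and 2 lower of 19, with 3 higher without Cas9 control replicate 2 or 3 and 4 lower without Cas9 control replicate 3. On the other chromosomes 2 of 14 were higher and 1 lower, where 9.94% and 6.5% of all tested genes were. With chromosome medians subtracted, the list had 2 higher and 2 lower. BTG2, an antiproliferative gene, rose from 48, 24 and 22 to 432, 464 and 250, TIGAR, a regulator of glycolysis, fell from 270, 281 and 287 to 89, 78 and 89, and TP53INP1 on chromosome 8 overlapped between the genotypes at 20, 0 and 0 against 19, 24 and 16. It was not called without Cas9 control replicate 2 or 3 (2.15 in each).

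Inflammatory genes were called higher and none lower, and interferon-stimulated genes were called lower more often than higher. In the NF-kB and cytokine list 14 of 30 tested genes were higher, with 8 on the other chromosomes and 5 on chromosome 6 (13 in all without Cas9 control replicate 1), and the other 16 were not called. None was called lower in limma, and 4 were lower at an unadjusted p under 0.05. Of the 26 members above the filter in both genotypes 11 were higher. Among all tested genes 11.5% were higher, and among those above it in both 8.44% were. CXCL8, the neutrophil chemoattractant interleukin-8, rose from 135, 110 and 82 to 1774, 1351 and 721 (log2 3.48 ± 0.31, adjusted p = 1.01e-06). TNF on chromosome 6 rose from 175, 160 and 90 to 2262, 1839 and 1279, which was 3.14 log2 units above its chromosome's median. Of 37 tested interferon-stimulated genes, all on the other chromosomes, 9 were lower and 2 higher (8 and 2 without Cas9 control replicate 1) and 26 not called, with a median of -0.43. Of all tested genes on these chromosomes 6.5% were lower and 9.94% higher. Of the 28 members above the filter in both genotypes 8 were lower and 1 higher, where 6.46% and 8.44% of all such genes were. OAS3 and OAS1, sensors of double-stranded RNA, fell from 501, 480 and 582 to 14, 16 and 6 and from 181, 165 and 231 to 6, 6 and 7 (log2 -5.42 ± 0.26 and -4.71 ± 0.20, adjusted p = 4.27e-09 and 1.58e-09). TRIM22, an antiviral ubiquitin ligase, fell from 588, 541 and 499 to 50, 49 and 41, while XAF1 rose from 4, 4 and 2 to 165, 153 and 144 and GBP2 from 13, 12 and 12 to 89, 103 and 90.

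Antigen presentation genes lay mainly on chromosome 6, where 14 of the 17 tested members are. HLA-E, a ligand of natural killer cell receptors, rose from 2528, 2744 and 2808 to 7482, 7611 and 7101, by 0.92 relative to the chromosome. PSMB9, an immunoproteasome subunit, and HLA-DPB1, a class II chain, fell against the direction of the chromosome, from 507, 484 and 542 to 48, 48 and 55 and from 59, 59 and 55 to 0, 2 and 0. CD74, the class II invariant chain on chromosome 5, rose from 18, 1 and 2 to 522, 583 and 512 (log2 6.80 ± 0.59, adjusted p = 8.14e-07).

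On the other chromosomes, the widest differences with at least 200 mean normalized counts were nearly on or off. KLF11 (a Kruppel-like repressor, chromosome 2) had 2, 0 and 0 normalized counts in Cas9 control and 1092, 798 and 619 in HK3-null, NEFH (neurofilament heavy chain, chromosome 22) 3, 0 and 1 and 1092, 1050 and 1038, and OLIG2 (a factor of oligodendrocytes, chromosome 21) 3, 0 and 0 and 784, 832 and 815. The falls were SLC38A5, GALNT14 (a glycosyltransferase that starts O-glycans) from 1568, 1451 and 1420 to 2, 2 and 0, and EMC10 (a subunit of the membrane protein insertase of the endoplasmic reticulum) from 1250, 1183 and 1195 to 2, 2 and 0. In all, 210 genes were at least 16-fold higher and 112 at least 16-fold lower on the log2(normalized count + 1) scale, 162 and 85 of them on the other chromosomes. All Cas9 control libraries were at 0 for 57 of the genes called higher, and all HK3-null libraries for 44 of those called lower. Log2 differences of genes at or near 0 depend on the added count of 1. Numbered zinc finger genes had 59 higher and 19 lower of 432 tested (55 and 20 without Cas9 control replicate 1). On the other chromosomes 46 of 393 were higher and 16 lower, with a median of 0.18. Of all tested genes there 9.94% were higher and 6.5% lower. ZNF441 was at 224, 227 and 190 in Cas9 control and at 0 in HK3-null, at least 73.6-fold lower, and ZNF57 and ZNF85 had at most 1 normalized count in each Cas9 control library and 187, 207 and 187 and 159, 180 and 146 in HK3-null.

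On each shifted chromosome the widest differences are given among called genes that had a mean of at least 200 normalized counts in 1 genotype and did not overlap, with LOC and LINC genes left out. Genes of lower counts can differ by more, as CD14 on chromosome 5 did. The rises on chromosome 5 went against the lower level of the chromosome. ZNF300, a zinc finger gene, had 5, 0 and 0 normalized counts in Cas9 control and 685, 676 and 593 in HK3-null, CD74 came next, and PLPP1, a lipid phosphatase, rose from 20, 21 and 19 to 294, 314 and 282. The widest falls at this level were NKD2 (a Wnt antagonist) from 2296, 2110 and 2156 to 1, 1 and 2, TRIO (a guanine nucleotide exchange factor for Rac) from 1418, 1404 and 1401 to 2, 3 and 7, and RANBP17 from 287, 267 and 273 to 0 in all 3, at least 94.9-fold lower. These falls were far outside the chromosome's middle range of -1.14 to -0.37, which held the central 50% of its tested genes.

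On chromosome 6 the widest rises at this level were ARG1 (arginase 1 of granulocytes) from 1, 1 and 1 to 228, 258 and 246, ZSCAN12 from 6, 1 and 1 to 294, 270 and 200 and SERPINB6 (an intracellular protease inhibitor) from 28, 4 and 7 to 807, 852 and 818. In SERPINB6 and ZSCAN12 the highest control value was again in Cas9 control replicate 1. ITPR3, a calcium release channel, fell against the chromosome from 569, 560 and 534 to 6, 3 and 4, as did LRP11 from 292, 304 and 266 to 35, 21 and 22. PRRC2A was among the 5 largest absolute rises, from 15183, 13194 and 14598 to 31311, 29571 and 29281, with a difference of 1.07.

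On chromosome 8, SLC7A2, DEFA3 and LAPTM4B led the rises at this level. LAPTM4B, a lysosomal membrane protein, had 43, 1 and 2 normalized counts in Cas9 control and 7928, 8187 and 7522 in HK3-null (log2 10.26 ± 0.90, adjusted p = 8.73e-07), with 43 in Cas9 control replicate 1. Of the 7 falls on this chromosome, the widest at this level were FGFR1 (a fibroblast growth factor receptor) from 741, 601 and 590 to 83, 72 and 55, ADGRB1 (an adhesion receptor for apoptotic cells) from 1162, 1004 and 1095 to 253, 190 and 161 and GSDMD (gasdermin D, the pore of pyroptosis) from 1248, 1119 and 1242 to 541, 527 and 542.

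On chromosome 13 the widest rises with at least 200 mean normalized counts were DNAJC15 (a mitochondrial cochaperone) from 2, 1 and 0 to 644, 610 and 609, WASF3 (a regulator of actin branching) from 7, 0 and 0 to 568, 534 and 419 and CCNA1 (cyclin A1) from 22, 18 and 16 to 540, 510 and 451. Of its 31 falls the widest at this level were GAS6-AS1, SPATA13 and RAB20, with log2 differences of -2.88, -2.27 and -1.81. GAS6-AS1 is antisense to a coding gene, and although the reads were directional, the strand setting of the counting is not given in the sources used here, so reads of the pair may not be separated. RAB20, a GTPase of phagosome maturation, went from 593, 467 and 461 to 145, 130 and 154.

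On chromosome 15 the widest rises with at least 200 mean normalized counts were RPP25 (a subunit of RNase P) from 17, 15 and 15 to 403, 377 and 360, NIPA1 (a magnesium transporter) from 20, 11 and 15 to 217, 250 and 242 and TGM5 (a transglutaminase) from 125, 128 and 158 to 700, 630 and 707. ANPEP (CD13, a surface peptidase of myeloid cells) also rose, from 2329, 2291 and 2501 to 9533, 9365 and 8433, by 2.86 log2 units relative to the chromosome. The widest falls at this level were IVD (isovaleryl-CoA dehydrogenase of leucine breakdown) from 1991, 1845 and 1972 to 29, 14 and 50, KLHL25 from 194, 234 and 247 to 4, 4 and 4 and ABHD17C (a depalmitoylase) from 415, 402 and 352 to 10, 13 and 6. These 3 lay between -6.09 and -5.25, against a chromosome median of -0.94.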

How the data were processed

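The members of this comparison, its chromosome groups and its gene lists were chosen with earlier results of these data known. The authors sequenced total RNA in directional paired-end reads, and the submitters' processing notes name hg38 and DESeq2, while the read aligner is not given in the sources used here. They deposited 1 log2 value per gene and library. Raising 2 to that value gave whole numbers, taken as normalized counts, and the deposited code for 0 was set to 0. A methods text speaks of RPKM, but no scaling by gene length was seen. Entries with no gene name held at most 0.00926% of each total and were left out. Of the named genes 25210 were placed on GRCh38 by symbol, 1325 by synonym and 1516 were not placed.

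Log2(normalized count + 1) of all 12 RNA libraries was fitted with 1 mean per group in limma 3.58.1 (R 4.3.3), with an intensity trend. Genes with a mean deposited log2 above 3 in at least 1 group were tested (13256), and p-values were adjusted by the Benjamini-Hochberg method. A call needed an adjusted p under 0.05 and a 2-fold difference. The fit was tested on simulated data. Limits for counts of 0 use 3 counts per library, and they cover counting error only. Replicate numbers paired the samples: deviations of same-numbered DMSO libraries correlated at 0.237 to 0.531 across 10667 genes, and those of different numbers at -0.441 to 0.049. The pairing comes from the replicate number in the sample titles, and all comparisons were also fitted with it as a block.

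Genes were named if they were HK3 or a given marker, among the 3 largest rises or falls in a chromosome group (non-overlapping, at least 200 normalized counts), among the 5 largest absolute changes, or among the 3 largest called changes of a list in either direction. Some genes that meet the rule are not reported here. MPO, MYC, COL1A1, COL1A2 and MRC1 were named for their values. Alternatives were the deposited values, quantile normalization, other filters, a threshold on unadjusted p, the 6 DMSO libraries alone, chromosome medians subtracted, and leaving out each library. The ATAC files were not used here.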

Additional observations from a re-analysis of the deposited data

Results flagged for a closer look

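For some of the named genes the genotype difference in DMSO was not the same as in ATRA. The difference between the log2 differences (DMSO minus ATRA) was tested as an interaction in limma over the 12 RNA libraries and is given where its adjusted p was under 0.05 and its size at least 1. HK3 differed by 1.94 between the genotypes in DMSO and by 0.05 in ATRA, an interaction of 1.89 ± 0.28 (SE, adjusted p = 0.00116). CD38 had the largest interaction of the named genes, 4.63 ± 0.18 (adjusted p = 4e-08), with a difference of 0.38 in ATRA.

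Genes whose rise was greater in DMSO had interactions of 2.29 (CYBB), 1.25 (BPI), 1.44 (DEFA4), 2.06 (NCF1), 2.08 (CLEC4E), 3.06 (LILRB4), 2.63 (LILRA5), 2.94 (ITGAX) and 2.29 (ICAM1). The same held for S100A8 (1.37), S100A9 (1.78), SLC7A2 (2.15), BCL2A1 (1.11), XAF1 (2.62), OLIG2 (2.42), PLPP1 (1.19), TGM5 (1.67) and ITGA2B (1.86). The rise was smaller in DMSO for LYZ (-1.57) and PRG2 (-2.81).

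Genes whose fall was greater in DMSO had interactions of -1.20 (CCND2), -1.69 (OAS3), -2.32 (CDKN1C), -1.44 (PFKM), -2.29 (SLC43A2), -1.07 (GLRX), -1.31 (PSMB9) and -1.30 (KLHL25). SIGLEC10 (-1.08) and RAB20 (-1.91) fell in DMSO and differed by 0.01 and 0.10 in ATRA. The fall was smaller in DMSO for PHGDH (2.20), ABCG1 (2.38) and ADGRB1 (2.82). Groups of 3 libraries were not searched for outliers.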

How the results depend on the processing

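The counts of calls over all chromosomes stayed within 1.5 times their value under all alternatives but the looser threshold. Leaving out each DMSO library in turn gave 1462 to 1600 genes higher and 1109 to 1179 lower. With the replicate number as a block, 1553 genes were higher and 1202 lower. Counts within chromosome groups moved with it, to 1074 higher and 720 lower on the other chromosomes. All 159 named and tested genes kept their direction and their side of the threshold with the block. With an unadjusted p under 0.05 and a 1.5-fold difference, 2486 genes were higher and 2131 lower, including 353 lower on chromosome 5, 290 higher on chromosome 6, 108 lower on chromosome 13, 20 higher and 295 lower on chromosome 15, and 1724 higher and 1261 lower on the other chromosomes.

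Subtracting each chromosome's median left 51 higher and 45 lower on chromosome 5, 55 and 55 on chromosome 6, 47 and 22 on chromosome 8, 12 lower on chromosome 13 and 37 and 30 on chromosome 15. By construction it takes the shifts away. The stricter filter of 50 normalized counts tested fewer genes and gave 19 lower on chromosome 6, 12 higher on chromosome 13 and 447 lower on the other chromosomes.

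The median shifts kept their signs on chromosomes 5, 6, 8, 13 and 15 under all other alternatives. With no filter they were -0.66, 0.33, 0.86, -0.46 and -0.78 in that order, and 0.00 on the other chromosomes. Quantile normalization gave -0.78, 0.48 and 1.02 on chromosomes 5, 6 and 8 and -0.02 on the others, the deposited values 1.10 on chromosome 8 and the stricter filter 0.55 on chromosome 6. Leaving out libraries gave 0.50 to 0.52 on chromosome 6 and -0.96 to -0.90 on chromosome 15.

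Of 159 named and tested genes, 120 kept their direction and their side of the threshold in every alternative. The sign turned for values near 0: MPO had 0.00 under quantile normalization and -0.04 to 0.05 with 1 library left out, MYC had -0.02 to 0.15 with 1 library left out and -1.02 with its chromosome's median subtracted, and RPL30 and NBN had 0.00 with it subtracted. COL1A1 had -2.30 to 0.37 with 1 library left out, the highest without Cas9 control replicate 1. The cause was not tested. Depth limits genes at or near 0 in a genotype, for which only bounds hold.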
